A study of Zea mays with 2 samples.

Results

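The regions described here are binding peaks of the maize transcription factor KN1 that lie on both sides of a gene and leave the gene itself free of a summit, the position of highest signal in a peak. They were chosen from the table of peaks and nearby genes by position. A gene on chromosomes 1 to 10 qualified when it was listed with 2 to 4 peaks, at least 1 of them with its summit upstream of the gene start and at least 1 with its summit downstream of the gene end, and none with its summit inside. This left 2493 of 21437 listed peaks (11.6%), around 1011 of the 13947 genes with a peak (7.25%). The position of a summit comes from the same ChIP signal as its height, so all values below are descriptions and none was tested.

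Peaks come from chromatin immunoprecipitation and sequencing (ChIP-seq) of 1 KN1 ChIP library and 1 input library. Both are from leaf protoplasts, wall-free cells, of the inbred line B73. Seedlings were kept under a light cycle for 3 days and in the dark for 7 days. Protoplasts were transfected with the p1107-KN1 plasmid, which overexpresses KN1 carrying a short peptide (BLRP) that a biotin ligase recognises, and both libraries share this transfection. Binding therefore refers to an introduced, tagged protein in leaf cells. A library from cells without tagged KN1 was not analysed here, and leaf identity was not checked against markers, since no expression was measured.

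KN1 (KNOTTED1) is a homeodomain protein of the KNOX class. In the plant it is known from the shoot meristem, where KNOX proteins help to keep cells undifferentiated, in part by holding gibberellin levels down, and it is normally absent from leaf primordia. Binding maps of plant transcription factors are usually densest near gene starts, and sites past gene ends also occur, so a gene can carry binding on both flanks. The gene identifiers of the table could not be paired with symbols, since 0 of the 1011 matched the RefSeq gene table, and genes are given by identifier and position only.

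Fold enrichment is the authors' own value throughout, a linear ratio of ChIP to input, with 1 added to each, taken where the peak is highest. The ChIP pileup, the number of overlapping extended reads at the summit, and the matching input level were solved from the fold and p-value of each peak. Pileups of the flanking peaks ranged from 9 to 270 reads, with a median of 32. Input sat at a genome-wide floor of 1.85 for 92.1% of upstream and 93.2% of downstream peaks, and the highest input levels were 3.52 and 4.02. For peaks at the floor the fold is a fixed rescaling of the pileup, so the values are not separate measures. With 1 library of each kind there is no replicate error. The 95% intervals cover counting only, of genes, peaks or reads in this pair of libraries.

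Most flanked genes had a single KN1 peak on each side. Of the 1011 genes, 639 (63.2%) had 1 upstream and 1 downstream peak. A further 272 genes had 3 peaks, with the extra peak upstream in 155 of them (57.0%, exact binomial 95% interval 50.9 to 62.9%) and downstream in 117. An upstream excess is general in these data and was larger outside the rule. Genes outside it, with any number of peaks, had 8289 upstream and 3576 downstream gene and peak pairs. At the flanked genes the rule itself sets 1 peak on either side, so the counts are not like for like. The remaining 100 genes had 4 peaks, split as 2 and 2 in 42 genes, 3 upstream and 1 downstream in 33, and 1 upstream and 3 downstream in 25. In all there were 1274 upstream and 1220 downstream peaks, and 1 peak flanked a flanked gene on either side of it. Genes lay on the plus strand in 491 cases and on the minus strand in 520. Among all 4692 genes with 2 to 4 peaks, those flanked on both sides made up 21.5%. A summit inside the gene occurred in 2631 (56.1%), peaks upstream only in 752 (16.0%) and peaks downstream only in 298 (6.35%).

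Upstream summits sat closer to the gene than downstream ones, which is not particular to flanked genes. The median distance was 480 bp from the gene start (quartiles 199 and 1426 bp) and 830 bp from the gene end (quartiles 378 and 1741 bp). In genes with 1 peak the medians were 299 bp upstream and 949 bp downstream. Genes with 2 to 4 peaks and a summit inside had 591 and 785 bp. With 2 to 4 peaks on 1 side only, the medians were 1249 bp upstream and 1730 bp downstream. Within 200 bp of the gene there were 321 upstream summits (25.2%) and 160 downstream summits (13.1%). Within 500 bp the shares were 50.9% (95% interval 48.1 to 53.6%) and 33.1% (30.5 to 35.8%). Beyond 2000 bp they were closer, at 17.3% and 21.4%. The farthest summits were 5932 bp upstream and 5277 bp downstream, near the limit of the table, which lists no peak edge more than 4998 bp from its gene.

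**Figure D1:**
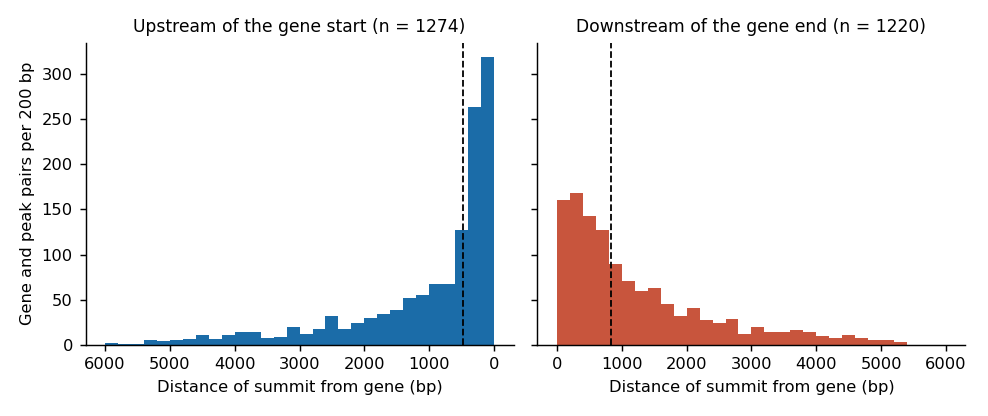
Distance of KN1 summits from flanked genes in bp, upstream of the gene start (left, 1274 gene and peak pairs) and downstream of the gene end (right, 1220), counted per 200 bp. Dashed lines mark the medians, 480 and 830 bp; upstream summits pile up next to the gene, and downstream summits spread over a wider range.

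Taken gene by gene, the nearest upstream summit was closer than the nearest downstream summit at 660 genes (65.3%, 95% interval 62.3 to 68.2%), farther at 349 and equally far at 2. At 281 genes (27.8%) both were within 500 bp of the gene. At 366 (36.2%) the upstream summit alone was that close, at 123 (12.2%) the downstream one alone, and at 241 (23.8%) neither. The distances on the sides of a gene were nearly unrelated, with a Spearman rho of 0.09 across the 1011 genes. The peaks themselves often reached into the gene although their summits did not. A peak overlapped the gene from both sides at 154 genes (15.2%), from upstream only at 351 (34.7%) and from downstream only at 120 (11.9%). At 386 genes (38.2%) the gene lay wholly between its peaks.

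KN1 enrichment was of similar height on both sides. Upstream peaks had a median fold of 12.3 (95% interval 11.2 to 12.97, quartiles 6.66 and 25.2) and reached 95.001. Downstream peaks had a median fold of 11.2 (10.5 to 11.9, quartiles 6.66 and 22.5) and reached 86.6. The median pileups were 34 and 31 reads and the median widths 512 and 494 bp. A fold of at least 10 was reached by 725 upstream peaks (56.9%) and 676 downstream peaks (55.4%), beside 47.4% of all chromosomal peaks of nuclear genes. Since position and height come from one signal, nothing is read from that gap.

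Close to the gene the folds were lower. Summits 1 to 200 bp upstream of the start had a median fold of 9.11 (95% interval 8.06 to 10.2, 321 peaks), against 14.4 (12.6 to 16.1) at 201 to 500 bp and 16.1 (12.97 to 17.5) at 501 to 1000 bp. From 1001 to 2000 bp the median was 12.3, and beyond it 11.7. Downstream of the gene end the order was alike, with 8.06 (7.36 to 10.2, 160 peaks) in the first 200 bp, 10.9 at 201 to 500 bp and 13.1 (11.2 to 15.1) at 501 to 1000 bp. Farther out, the downstream medians were 11.6 and 11.9. The interval of the upstream median lies above that of the nearest class at 201 to 500 bp and at 501 to 1000 bp. On the downstream side it does so at 501 to 1000 bp and beyond 2000 bp. Such intervals count peaks of 1 pair of libraries, and the differences between distance classes were not tested. Peaks with summits in the first 200 bp were also narrower, with median widths of 437 and 435 bp, against 632 and 535 bp at 501 to 1000 bp. Across all flanking peaks width rose with fold (Spearman rho 0.82 upstream and 0.79 downstream), in part by construction, since the edges of a higher peak clear the calling threshold farther out. The position rule touches this class, since a summit just inside the gene would have removed the gene. The 116 flanking summits within 50 bp outside a gene had a median fold of 7.71, and the 371 summits within 50 bp inside genes of 2 to 4 peaks had one of 8.26.

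**Figure D2:**
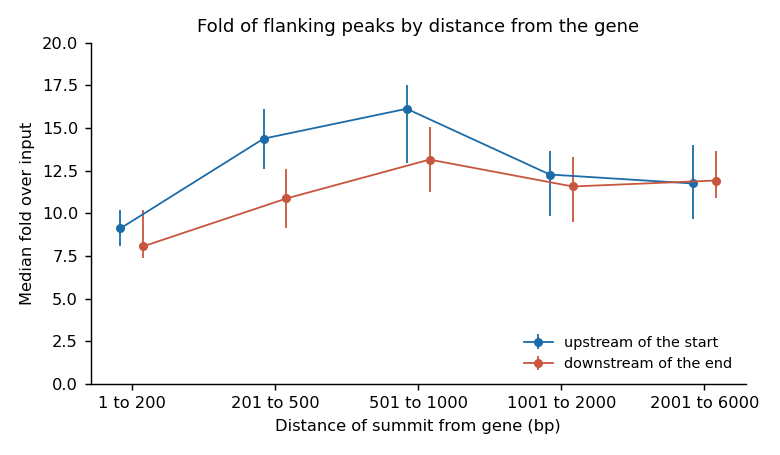
Median fold over input (linear axis from 0) of flanking KN1 peaks by distance of the summit from the gene in bp, upstream of the start (blue) and downstream of the end (red). Bars are exact binomial 95% intervals of the median; both sides are lowest within 200 bp of the gene, at 9.11 and 8.06.

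Across the flanked genes as a whole, the heights of the peaks on either side were nearly unrelated. With the strongest peak of each side taken, the Spearman rho of upstream and downstream fold was 0.05 across the 1011 genes, which share the same libraries. It was 0.04 in genes with 2 peaks, -0.12 with 3 and 0.02 with 4. By gene length it lay between -0.07 and 0.13 in 5 length classes. Among flanked genes with 2 peaks it was -0.23 where the summits were at most 1500 bp apart (88 genes), 0.08 at 1501 to 3000 bp, 0.13 at 3001 to 5000 bp and 0.05 beyond. With all gaps pooled, a low rho is not particular to the flanked arrangement. Among all 3184 genes with exactly 2 peaks it was 0.00. Within the other arrangements of a pair it ranged from -0.08 for 2 inside peaks to 0.03 for an inside and a downstream peak. With summits at most 1500 bp apart, the other arrangements lay between -0.04 and 0.02, against -0.23 for flanked pairs. At wider gaps the other arrangements ran from -0.20 (2 inside peaks beyond 5000 bp, 46 genes) to 0.29. The latter was for an inside and a downstream peak at 3001 to 5000 bp (90 genes). These differences were not tested.

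The sides were balanced in the sum over genes and unequal at single genes. The strongest upstream peak was higher at 526 genes (52.0%, 95% interval 48.9 to 55.1%), the strongest downstream peak at 477, and both were equal at 8. The median of the log2 ratio of upstream over downstream fold was 0.09 (95% interval -0.03 to 0.19), with quartiles at -1.06 and 1.24. At the median gene the stronger side had 2.18 times the fold of the weaker. The sides differed at least 2-fold at 552 genes (54.6%), beside 55.1% of all 1418 genes with peaks on both sides, which include those with a summit inside or more than 4 peaks. Upstream was at least 2-fold higher at 289 genes (28.6%, background 29.8%) and downstream at 263 (26.0%, background 25.4%). These shares are near the background, of which the flanked genes themselves make up 71.3%. Among the other 407 genes the sides differed at least 2-fold at 56.5% (95% interval 51.5 to 61.4%). A difference of at least 4-fold was seen at 134 genes with upstream higher (13.3%, background 13.5%) and 104 with downstream higher (10.3%, background 9.24%), also near the background.

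Counting error alone leaves room for part of these differences. Exact Poisson 95% intervals of the strongest upstream and downstream pileup did not overlap at 574 of the 1011 genes (56.8%), beside 58.9% of all genes with peaks on both sides. Among the 407 genes outside the rule the share was 64.1% (95% interval 59.3 to 68.8%), against 53.7 to 59.9% as the interval of the flanked genes. Upstream was the higher at 296 of the 574 and downstream at 278. Both sides reached a fold of 10 at 390 genes (38.6%), the upstream side alone at 243 (24.0%), the downstream side alone at 219 (21.7%), and neither at 159 (15.7%). Over all 1418 genes with peaks on both sides the shares were 42.4%, 23.4%, 20.1% and 14.1%. Both sides reached that fold at 51.8% (46.9 to 56.8%) of the 407 genes outside the rule, which have a summit inside or more than 4 peaks. Each of these carries more peaks than the 63.2% of flanked genes with 2. More peaks on a side tend to raise its strongest peak by construction, and the differences between the groups were not tested.

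**Figure D3:**
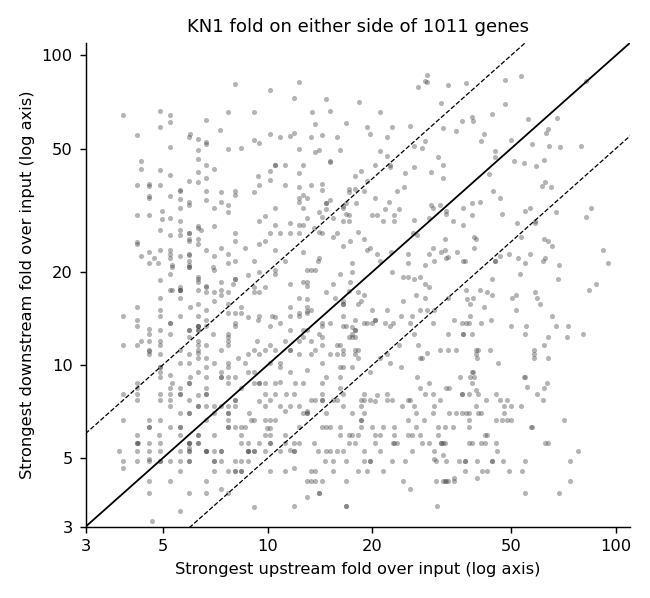
Strongest upstream fold over input against strongest downstream fold of the 1011 flanked genes, 1 point per gene, both axes logarithmic. The solid line marks equal folds and dashed lines a 2-fold difference; the points fill the square with no clear trend (Spearman rho 0.05), and 552 of them lie outside the dashed lines or on them.

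At a small set of genes KN1 enrichment was high on both flanks. The 10 genes with the highest fold on their weaker side all exceeded a fold of 50 upstream and downstream, whereas the median weaker side of all flanked genes had a fold of 7.71. The first was Zm00001d045204 on chromosome 9 (15996069 to 15996644, minus strand, AGPv4), a gene of 576 bp. Its upstream peak (15996615 to 15997841) had a pileup of 234 reads over an input of 1.85 and a fold of 82.4, with the summit 796 bp from the gene start. Its downstream peak (15994229 to 15996192) had 235 reads over an input of 1.85 and a fold of 82.7, with the summit 799 bp from the gene end. The flanks of this gene were thus nearly mirror images in height and distance, and the downstream peak is also listed with another gene.

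The second was Zm00001d024324 on chromosome 10 (64620725 to 64621285, plus strand). It had a fold of 67.7 (192 reads) 289 bp upstream and a fold of 62.7 (178 reads) 2129 bp downstream. At Zm00001d038810 on chromosome 6 (164906424 to 164907077, minus strand) the strongest peaks had folds of 63.8 at 1277 bp upstream and 57.8 at 1010 bp downstream. This gene carried 2 more downstream peaks, at 1929 and 3459 bp, with folds of only 5.96 and 9.11. Zm00001d001724 on chromosome 5 (203497923 to 203498333, plus strand) had the same mixture of strong and weak peaks. Folds of 56.1 at 1896 bp upstream and 62.5 at 434 bp downstream stood beside outer peaks of 5.26 and 3.51, the latter with a pileup of 9 reads.

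Zm00001d020837 on chromosome 7 (134352325 to 134353122, plus strand) had folds of 63.1 at 845 bp upstream and 56.1 at 1021 bp downstream. Zm00001d007420 on chromosome 2 (231240286 to 231241095, minus strand) had folds of 57.5 at 554 bp and 51.8 at 314 bp. Zm00001d046632 on chromosome 9 (99815018 to 99815932, plus strand) had folds of 64.5 at 930 bp upstream and 51.2 at 992 bp downstream, with a weaker upstream peak of 8.76 at 1649 bp. In these 3 genes, as in the 4 before them, the Poisson intervals of the strongest pileup on either side overlapped.

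The other 3 of the 10 genes were unequal beyond counting error. Zm00001d019207 on chromosome 7 (21927733 to 21929407, plus strand) was higher downstream, with a pileup of 244 reads (214 to 277) at 1043 bp against 151 (128 to 177) at 107 bp upstream of its start. Zm00001d034558 on chromosome 1 (296303849 to 296305238, minus strand) was higher upstream, with 225 reads (197 to 256) at 1352 bp and 152 at 55 bp, against 144 (121 to 170) downstream. Zm00001d006078 on chromosome 2 (197542925 to 197543503, minus strand) was also higher upstream, with 207 reads (180 to 237) against 143 (121 to 168). Of the 10 genes, 8 were at most 1000 bp long, beside 36.2% of all flanked genes, a difference that was not tested. Input was at the floor at 23 of their 27 peaks and at 2.01 at the other 4.

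**Figure D4:**
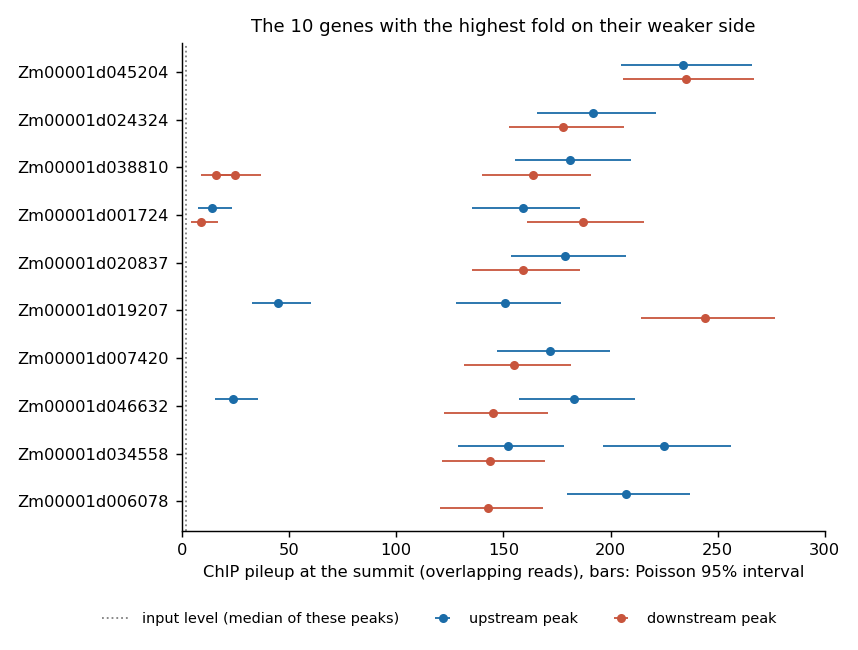
ChIP pileup at the summit (overlapping reads, linear axis from 0) of every peak of the 10 genes with the highest fold on their weaker side, upstream peaks in blue and downstream peaks in red. Bars are exact Poisson 95% intervals, the dotted line is the input level of 1.85; 7 genes have overlapping intervals for the strongest peak of each side, and the 6 weakest extra peaks lie at 9 to 45 reads.

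At the other extreme, KN1 signal was strong on one flank and weak on the other. Among genes whose stronger side reached a fold of 10, the largest excess upstream was at Zm00001d038584 on chromosome 6 (160527296 to 160527928, minus strand). Its upstream peak had 195 reads (169 to 224) and a fold of 68.7 at 410 bp. The downstream peak had 10 reads (4.80 to 18.4) and a fold of 3.86, with its summit 6 bp past the gene end, a ratio of 17.8. Zm00001d012584 on chromosome 8 (176883525 to 176884022, minus strand) followed with a ratio of 17.6, from upstream folds of 74.0 at 2480 bp and 51.5 at 347 bp and a downstream fold of 4.21. At Zm00001d002843 on chromosome 2 (24293846 to 24295521, minus strand) the folds were 74.0 and 4.91, a ratio of 15.1. At Zm00001d034501 on chromosome 1 (294730026 to 294731510, plus strand) they were 77.8 and 5.26, a ratio of 14.8.

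The largest excess downstream was at Zm00001d028159 on chromosome 1 (24572142 to 24572678, plus strand). Its downstream peak had 182 reads (157 to 210) and a fold of 64.2, with the summit 5178 bp past the gene end. Its upstream peak, 250 bp from the start, had 10 reads (4.80 to 18.4) and a fold of 3.86, so the downstream side was 16.6 times higher. Zm00001d017806 on chromosome 5 (207369388 to 207372376, plus strand) had a fold of 66.3 at 424 bp downstream against 4.91 upstream, a ratio of 13.5. At Zm00001d040111 on chromosome 3 (27971283 to 27971801, minus strand) the downstream fold of 55.4 at 1385 bp was 13.2 times the upstream fold of 4.21. Zm00001d029353 on chromosome 1 (67108827 to 67116860, minus strand) had 64.2 at 624 bp downstream and 14.4 farther out, against 5.26 upstream, a ratio of 12.2. The weak sides of these 8 genes rest on 10 to 14 reads, so their ratios are imprecise.

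Genes with more peaks had a stronger strongest peak. The highest of more values tends to be higher by construction, and how much of the rise this covers was not tested. The strongest upstream fold had a median of 11.9 with 2 peaks, 16.7 with 3 and 17.9 with 4, and the strongest downstream fold 11.2, 14.7 and 19.3. Taken over every peak, the medians stayed at 11.6, 11.6 and 12.1. Where a side held several peaks, the smallest gap between neighbouring summits had a median of 1234 bp upstream (230 genes) and 1092 bp downstream (184 genes). No gap was below 364 bp. The peak nearest the gene was the strongest of its side at 103 of the 230 upstream sides (44.8%) and at 98 of the 184 downstream sides (53.3%). Just past the limit of 4 peaks, 39 genes had 5 peaks in the same arrangement, with median strongest folds of 31.2 upstream and 28.7 downstream, against 17.9 and 19.3 in the 100 genes with 4. A median over every peak is not given for those 39 genes.

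Among genes with 4 peaks, summed fold was highest at Zm00001d029601 on chromosome 1 (78654675 to 78656117, minus strand). From 5′ to 3′ its peaks had folds of 23.8 and 33.0 at 3134 and 385 bp upstream, and 31.9 and 80.3 at 289 and 3074 bp downstream. The arrangement was close to symmetrical in distance, with the strongest peak farthest past the gene end. Zm00001d016718 on chromosome 5 (173931573 to 173931902, minus strand) had 3 upstream peaks with folds of 27.7, 48.0 and 7.71 at 3512, 2782 and 1321 bp, and 1 downstream peak of 69.8 at 2234 bp. Its nearest upstream peak was the weakest of the 4. Zm00001d002799 on chromosome 2 (22972434 to 22973879, minus strand) had folds of 41.0 and 51.2 at 1619 and 749 bp upstream and of 9.11 and 45.5 at 1319 and 3199 bp downstream. At Zm00001d051448 on chromosome 4 (159031088 to 159035197, plus strand) the upstream peak, 77 bp from the start, had a fold of 48.0. The folds of its downstream peaks fell off with distance, from 83.1 at 1191 bp to 9.82 at 1775 bp and 4.91 at 2866 bp.

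Flanked genes were short as listed. Lengths and distances refer to the listed gene models. Whether short models leave out transcribed ends outside the coding sequence was not tested. Their median length was 1371 bp (95% interval 1281 to 1465 bp, quartiles 744 and 2662 bp), against 2914 bp for all genes with a peak. At most 1000 bp were reached by 366 of the flanked genes (36.2%) and by 19.1% of all genes with a peak, and 109 flanked genes (10.8%) were over 5000 bp, against 26.5%. Genes with 2 to 4 peaks on the upstream side only had a median length of 1835 bp, on the downstream side only 2200 bp, and with a summit inside 3580 bp. The rule excludes a summit inside, which also holds for the upstream-only and downstream-only genes. What sets the lengths was not tested. The flanked arrangement accounted for 46.0% of genes of 1 to 500 bp with 2 to 4 peaks, 45.4% of those of 501 to 1000 bp and 31.1% of those of 1001 to 2000 bp. From 2001 to 5000 bp it was 12.7%, and above that 10.2%. Folds differed less between length classes. The median strongest upstream fold was 15.4 in the shortest class, 16.5 and 14.4 in the next classes, and 12.6 and 11.6 in the longest, and downstream it was between 10.9 and 13.7 in every class.

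**Figure D5:**
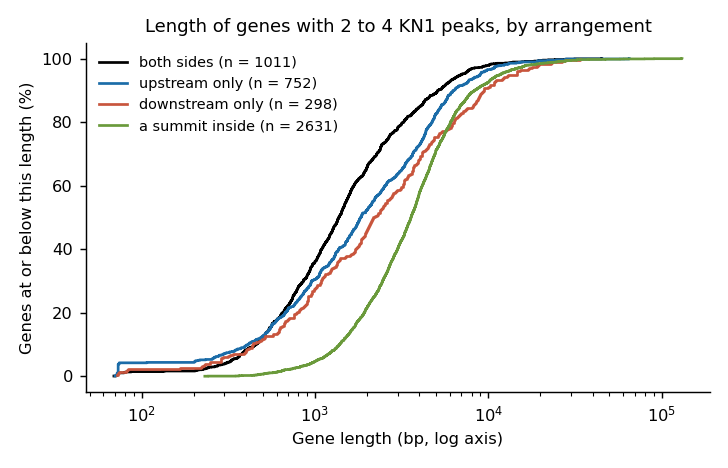
Cumulative share of genes (%) by gene length in bp on a logarithmic axis, for genes with 2 to 4 KN1 peaks in 4 arrangements. The curve of genes flanked on both sides (black, median 1371 bp) crosses 50% at the shortest length, and that of genes with a summit inside (green, median 3580 bp) at the longest.

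The nearest upstream and nearest downstream summits were a median of 3013 bp apart (quartiles 1929 and 4990 bp). The closest pair enclosed Zm00001d012596 on chromosome 8 (177034496 to 177034942, plus strand), a gene of 447 bp. Its summits were 614 bp apart, at 97 bp upstream with a fold of 5.96 and at 71 bp downstream with one of 20.7, and both peaks overlapped the gene. Next were Zm00001d044778 on chromosome 9 (2201767 to 2201839, plus strand), with summits 629 bp apart and folds of 5.61 and 17.5, and Zm00001d003981 on chromosome 2 (73518754 to 73519134, minus strand), 643 bp apart with 5.26 and 13.7. In all 3 of these tight pairs the downstream peak was the higher. This does not extend to close pairs in general. Over the 88 flanked genes with 2 peaks at most 1500 bp apart, median folds were 13.5 upstream and 11.2 downstream.

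The shortest flanked genes were gene models of 69 to 71 bp. Zm00001d032743 on chromosome 1 (237024928 to 237024996, plus strand) had folds of 25.2 at 353 bp upstream and 19.3 at 564 bp downstream. Zm00001d005956 on chromosome 2 (193772068 to 193772138, plus strand) had 63.8 and 12.3, and Zm00001d033474 on chromosome 1 (263685913 to 263685983, minus strand) 10.9 and 13.7. At such lengths a pair of flanking peaks is a pair of neighbouring peaks less than 1500 bp apart with a very small model between them. The longest flanked gene, Zm00001d003198 on chromosome 2 (35342453 to 35387667, minus strand), spanned 45215 bp with no listed summit inside. Its peaks hugged both ends, at 39 bp upstream with a fold of 15.1 and at 86 bp downstream with one of 66.3. Zm00001d006758 on chromosome 2 (216069791 to 216101183, minus strand) had folds of 14.02 at 187 bp upstream and 22.1 at 3961 bp downstream. Zm00001d026653 on chromosome 10 (149459106 to 149486790, plus strand) had 36.8 at 183 bp upstream, and 4.56 and 4.91 at 901 and 1656 bp downstream.

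Other arrangements of peaks are set beside the flanking peaks as values only. Peaks of genes with 2 to 4 peaks on the upstream side only had a median fold of 10.5 (95% interval 10.2 to 11.2), and on the downstream side only 11.3 (10.2 to 12.3). In genes with 2 to 4 peaks and a summit inside, the upstream peaks had a median fold of 12.3 and the downstream peaks 11.2, the same as at the flanked genes to this precision, and the inside peaks 8.06. Genes with a single peak had lower medians, 9.81 upstream (9.47 to 9.97) and 9.47 downstream (9.11 to 9.82), and these intervals do not overlap those of the flanking peaks on the same side. In genes with exactly 2 peaks, the peaks differed at least 2-fold at 338 of the 639 flanked genes (52.9%, 95% interval 48.9 to 56.8%), beside 51.7% of all 3184 genes with 2 peaks. The summits of those flanked pairs were a median of 3043 bp apart, a gap that holds the whole gene by the rule. It was 3596 bp for an inside and a downstream peak, 1703 bp for an upstream and an inside peak, 1339 bp for 2 inside peaks, 1264 bp for 2 upstream peaks and 1178 bp for 2 downstream peaks.

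Flanked genes occurred on every chromosome. Their share among genes with 2 to 4 peaks ran from 17.7% on chromosome 4 (68 genes, 95% interval 14.02 to 21.9%) to 23.4% on chromosome 3 (135 genes, 19.96 to 27.02%). Chromosome 1 held the most, 168. The median log2 ratio of upstream over downstream fold ran from -0.21 on chromosome 4, where upstream was higher at 41.2% of genes, to 0.34 on chromosome 2, where it was higher at 58.6%. The outermost 10% at either end of the chromosomes held 404 flanked genes (40.0%), close to the 38.8% of other genes with 2 to 4 peaks.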

How the data were processed

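One ChIP and one input library of tagged KN1 in maize leaf protoplasts were compared by the authors. Tools named in the submitters' processing notes are MACS2 (no version), SAMtools 1.11, Bowtie2 2.4.2 and fastp 0.21.0. Peak names contain rmdup and 700 Mb as the effective genome size, and contig names are those of AGPv4. Per the file's layout (it has no header), the deposited columns hold a fold (summit ratio of ChIP to input), the −log10 p-value and −log10 q-value, a score derived from the latter, and the bp offset of the summit. Peaks were called on single libraries.

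Summits were placed by gene strand, and peak positions converted to 1-based; gene coordinates are as listed. Pileup and input level were solved from deposited fold and p-value taking fold as (pileup + 1) / (input + 1) and p as the upper Poisson tail. Both came out within a relative error of 1e-05 for a whole pileup at all 21437 peaks. The floor of 1.85 depends on the 700 Mb setting, and read totals were not used here. On simulated peaks, position class (48992 peaks), flanked status (13947 genes) and pileup (5000 peaks) were recovered in 100.0%. The simulated peaks were built with the same formulas and strand rule. The recovery therefore checks the code and cannot show that these formulas hold for the deposited values.

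Software was scipy 1.17.1, pandas 2.3.3, numpy 2.4.6 and matplotlib 3.10.9 under Python 3.11.15. Shares have Clopper-Pearson and medians exact binomial order-statistic 95% intervals. Neighbouring peaks are not independent, and reads without molecular identifiers are not independent molecules. The members and all lists were chosen with earlier results of these data known. Named genes were the 10 with the highest fold on their weaker side, the 4 most unequal in each direction with a stronger side of at least 10-fold, the 3 shortest, the 3 longest, the 3 with the closest summits and the 4 with the highest summed fold among genes with 4 peaks. Lists of KNOX, hormone, growth and nitrogen genes were set by symbol and could not be used, since no identifier matched a symbol. Peaks on contigs, the mitochondrial sequence and genes with other identifiers were left out.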

Additional observations from a re-analysis of the deposited data

How the results depend on the processing

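Of 72 values, 9 results under 8 alternatives, 47 stayed within the 95% interval of the main value (for the number of genes, within 1.5 times) and 25 did not. The cause was not tested except where the alternative's construction gives it. With peak edges in place of summits, overlap counts as inside, which leaves 386 genes. Their median fold was 9.82 upstream, the median log2 ratio -0.060, the share with upstream higher 47.7%, the distances 857 and 1195 bp and the gene length 1254 bp. With −log10 q of at least 10, 747 genes qualified, 633 of them shared with the main set. Medians were 16.5 and 15.4 for fold, 531 bp upstream and 1482 bp for length, and 49.1% differed at least 2-fold. Above the median score, 537 genes qualified, 406 of them shared. Medians were 21.0 and 21.4 for fold, 633 and 921 bp for distance and 1491 bp for length, and 43.2% differed at least 2-fold. These thresholds remove weak peaks by construction. Exactly 2 peaks leave 639 genes, with distances of 343 and 698 bp, no upper limit on peaks gave 554 bp upstream, and a limit of 2000 bp gave 351 and 605.5 bp. No paired analysis was possible because each group has 1 library. Leaving out a replicate was likewise not possible. Depth limits the weak sides, where 10 reads carry an interval of 4.80 to 18.4.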

Other observations

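Another gene with a listed KN1 peak lay within 5 kb of the summit for 277 upstream peaks (21.7%, 95% interval 19.5 to 24.1%) and 277 downstream peaks (22.7%, 20.4 to 25.2%). At genes outside the rule the shares were 21.0% of upstream and 24.7% of downstream summits. No other such gene was within 5 kb of the summit for 997 of 1274 upstream peaks (78.3%) and 943 of 1220 downstream peaks (77.3%). Of the downstream peaks, 124 (10.2%) lay upstream of the nearest other gene and had a median fold of 12.3 (95% interval 9.82 to 14.3), and 142 (11.6%) lay downstream of it, between gene ends, with 10.3 (8.76 to 13.7). Of the upstream peaks, 115 (9.03%) lay upstream of the other gene too, between gene starts, with a median fold of 13.3 (8.41 to 16.5), and 156 (12.2%) downstream of it, with 14.5 (12.3 to 17.2). The summit lay inside the other gene for 11 downstream peaks (0.90%) and 6 upstream peaks (0.47%). For the 997 upstream peaks with no such neighbour the median was 11.9, and for the 943 downstream peaks 11.2. Genes without a listed peak were not analysed here, so a closer neighbour may exist at any of these peaks.

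Flanked genes followed each other directly among the listed genes in 82 pairs, and 20 of these pairs were less than 10 kb apart. Flanked genes were a little less frequent in the middle of the chromosomes, between 30 and 60% of their extent, than other genes with 2 to 4 peaks, with 81 of 1011 (8.01%, 95% interval 6.41 to 9.86%) against 383 of 3681 (10.4%, 9.44 to 11.4%), a difference that was not tested. The 81 genes had median strongest folds of 12.97 upstream and 16.5 downstream (95% intervals 10.5 to 19.6 and 11.6 to 21.4).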
